A study of Mus musculus with 15 samples.

Results

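Brush border peptidases are the enzymes on the microvilli of enterocytes that trim peptides before uptake. The gene set named 9 of them: Naaladl1, Anpep, Dpp4, Enpep, Mep1a, Mep1b, Ace, Ggt1 and Xpnpep2. Members were the array features whose annotation gave exactly 1 gene symbol, and that symbol was on this list. There were 8 such genes with 1 transcript cluster each, of 19938 genes with a symbol, and all 8 were among the 11784 genes tested. Ggt1, a gamma-glutamyl transferase, was not analysed here. RNA of epithelial cells isolated from the small intestine of adult mice was hybridised to 15 Affymetrix Mouse Gene 1.0 arrays, 3 in each of 5 groups. The groups were ileum of Gata4 conditional knockin (cKI) mice, ileum of the mice labelled control, jejunum of Gata4 conditional knockout (cKO) mice, jejunum of wild-type (WT) CD1 mice and ileum of WT CD1 mice. The labels gave no strain, Cre driver or promoter for the control, cKI or cKO mice, no age beyond adult, and no control jejunum from the cKO line. Whether the 3 arrays of a group were from 3 animals was not stated, and the p-values therefore reflect only how these arrays vary, which may be technical.

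Dietary protein reaches the jejunum and ileum as short peptides. Aminopeptidases, carboxypeptidases and endopeptidases anchored in the brush border cut these into free amino acids, dipeptides and tripeptides, which amino acid carriers and the peptide transporter PepT1 take up. Anpep (aminopeptidase N), Enpep (aminopeptidase A, which removes acidic residues) and Xpnpep2 (membrane aminopeptidase P, which removes a residue that precedes proline) act on the N-terminus. Dpp4 (dipeptidyl peptidase 4) removes N-terminal dipeptides that end in proline or alanine and inactivates incretin hormones. Ace (angiotensin-converting enzyme) removes dipeptides from the C-terminus. Mep1a and Mep1b encode the alpha and beta subunits of meprin, a zinc endopeptidase. Naaladl1 belongs to the glutamate carboxypeptidase family and was first described in rat as a brush border protein of the ileum. Gata4, a zinc finger transcription factor, is made in duodenum and jejunum and little in distal ileum, and the design asks which genes follow it between jejunum and ileum.

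Signals are log2 values as deposited, with array medians of 4.82 to 5.0 over all transcript clusters. For arrays, their number limits the precision. Differences are given on the log2 scale with the standard error from limma and with adjusted p-values from limma after Benjamini-Hochberg correction across the 11784 genes tested, and a gene is called when that value is under 0.05. The error given with a mean is the SD (n = 3 arrays). Gata4 was at 8.02, 8.43 and 8.17 in the cKI ileum, against 6.71, 7.22 and 6.53 in the control ileum, higher by 1.38 ± 0.185 (adjusted p = 0.00453). It was also higher in control ileum than in WT ileum, where it was at 5.99, 5.43 and 5.39, by 1.22 ± 0.185 (adjusted p = 0.000284). It was at 9.72, 9.88 and 9.93 in the arrays labelled cKO jejunum, against 9.68, 9.45 and 9.47 in WT jejunum, a difference of 0.31 ± 0.185 (adjusted p = 0.322). The Gata4 signal was therefore not lower in the arrays labelled cKO. The labels do not give the deleted part of the gene, and a cluster read outside it checks nothing. All 10 epithelial markers examined, Epcam and Vil1 among them, had group means above 4.91, the median of all values and the level required for testing, in every group. Arrays of 1 group correlated over all clusters by 0.971 to 0.978 in the group labelled cKO jejunum and by 0.984 to 0.99 in the other groups, and cKO jejunum replicates 1 and 3 each correlated best with a WT ileum array. The jejunal list (Gata4, Fabp1, Lct, Slc2a2 and Cyp2b10) had array means of 10.87 to 11.34 in WT jejunum and of 4.38 to 4.69 in WT ileum, as the labels of these regions say. The ileal list (Fabp6, Slc10a2, Slc51a, Slc51b and Guca2a) had array means of 7.13 to 7.73 in WT jejunum and of 11.31 to 11.7 in WT ileum. In the arrays labelled cKO jejunum the ileal list was at 11.11 to 11.55 and the jejunal list at 7.4 to 8.31. Against WT jejunum, 5 of 5 ileal genes were called higher there and 3 of 5 jejunal genes lower, beside 5.17% and 7.65% of all genes tested.

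Of the 8 peptidases, 4 (Naaladl1, Mep1a, Xpnpep2 and Ace) had WT jejunum arrays that lay all below or all above every other array. The share of all genes tested with this separation is not given here, so the count is a description only. Naaladl1 was at 11.41, 11.79 and 11.25 in cKI ileum, 12.14, 11.98 and 11.76 in control ileum, 12.14, 11.81 and 11.71 in the arrays labelled cKO jejunum, 9.61, 9.06 and 9.54 in WT jejunum and 12.08, 11.32 and 11.88 in WT ileum. All its WT jejunum arrays lay below every other array, and the other groups overlapped with their neighbours in the order of means. Mep1a was at 9.73, 10.41 and 9.75 in cKI ileum, 11.08, 11.28 and 10.64 in control ileum, 11.36, 10.91 and 10.62 in the arrays labelled cKO jejunum, 9.08, 8.67 and 8.46 in WT jejunum and 11.21, 10.61 and 10.75 in WT ileum. WT jejunum was again lowest, and cKI ileum stood between it and the remaining groups without overlap on either side. Xpnpep2 was at 9.97, 10.45 and 9.49 in cKI ileum, 10.48, 10.67 and 10.19 in control ileum, 10.98, 10.13 and 10.26 in the arrays labelled cKO jejunum, 9.43, 9.07 and 8.89 in WT jejunum and 10.33, 9.57 and 9.93 in WT ileum. WT jejunum was lowest here too, with a mean 0.82 below its neighbour WT ileum and its highest array (9.43) close to the lowest cKI array (9.49), and the other groups overlapped. Ace had the opposite order: it was at 9.60, 10.20 and 8.37 in cKI ileum, 8.93, 8.83 and 8.55 in control ileum, 9.79, 8.27 and 9.34 in the arrays labelled cKO jejunum, 11.93, 11.84 and 11.71 in WT jejunum and 8.48, 7.84 and 8.43 in WT ileum. All WT jejunum arrays lay above every other array, control ileum lay just above WT ileum without overlap, and the spread was widest in cKI ileum (SD 0.94) and in the arrays labelled cKO jejunum (SD 0.78).

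**Figure D1:**
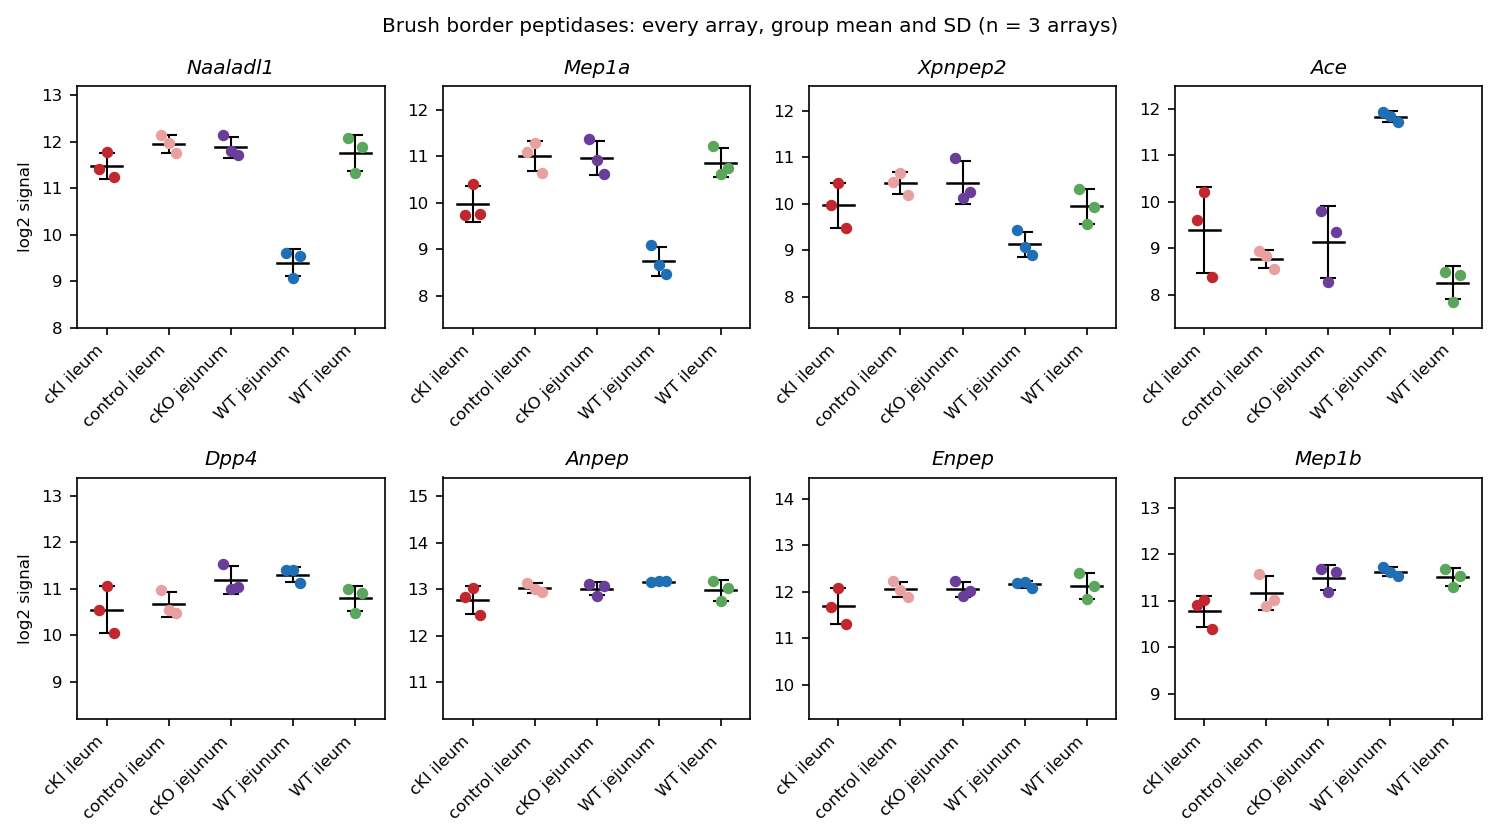
Log2 signal of the 8 peptidases on each array (points), with the group mean and SD (bars, n = 3 arrays), for cKI ileum, control ileum, cKO jejunum, WT jejunum and WT ileum. Each axis spans the same number of log2 units. Naaladl1, Mep1a and Xpnpep2 were lowest in WT jejunum and Ace was highest there, whereas Anpep, Enpep, Dpp4 and Mep1b had group means within 0.4 to 0.85 of each other.

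The other 4 members varied less between groups. Anpep ranged from 12.44 to 13.17 over the 15 arrays, Enpep from 11.3 to 12.41, Dpp4 from 10.06 to 11.53 and Mep1b from 10.39 to 11.72. Each had its highest mean in WT jejunum and its lowest in cKI ileum. The span between those group means was 0.4 for Anpep, 0.47 for Enpep, 0.76 for Dpp4 and 0.85 for Mep1b, against a median span of 0.53 over all tested genes. For Naaladl1, Mep1a, Xpnpep2 and Ace the span was 2.56, 2.26, 1.33 and 3.57. The highest value in the table was 13.87, so the Anpep signals lay near the top of the scale, and whether they were compressed there was not tested. The meprin subunits thus differed in pattern: Mep1b was at 11.63 ± 0.09 in WT jejunum and 11.51 ± 0.2 in WT ileum, where Mep1a was at 8.74 ± 0.32 and 10.85 ± 0.31.

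Between WT jejunum and WT ileum, Ace was higher in the jejunum and Naaladl1, Mep1a and Xpnpep2 were lower. Ace differed by 3.57 ± 0.397, which is 11.9-fold (adjusted p = 1.16e-05, higher in 3 of 3 arrays). Naaladl1 differed by -2.36 ± 0.208, which is 5.12-fold (adjusted p = 1.26e-06), and Mep1a by -2.11 ± 0.245, which is 4.33-fold (adjusted p = 1.7e-05). Both were lower in 3 of 3 jejunal arrays. Xpnpep2 differed by -0.82 ± 0.268, which is 1.76-fold (adjusted p = 0.042). Its call held under 11 of 17 alternatives, among them array weights, blocks by replicate number and quantile normalization. It was lost without WT ileum replicate 1 (adjusted p = 0.17) or 3 (0.0907), and without WT jejunum replicate 2 (0.117) or 3 (0.133). It was also lost with no level filter (0.0568) and with a trended robust variance (0.0529). The counts were thus 1 of 8 higher and 3 of 8 lower, where 13.4% of all genes tested were called higher in the jejunum and 7.91% lower, 21.3% in all. Several marker lists moved with the region. Called lower in WT jejunum were 8 of 10 stromal and smooth muscle, 4 of 4 goblet, 3 of 6 B and plasma cell, 2 of 6 myeloid and 4 of 10 epithelial markers. Of 20 genes of brush border structure and villus enterocytes, 6 were called higher there and 0 lower. The part of these lists in the members' values was not tested. The median difference was 0.08 over the members and 0 over all genes. Of the calls over all genes, 62.8% were higher in the jejunum as deposited and 52% after quantile normalization.

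For the members that did not pass, the intervals set bounds. The 95% confidence interval of the jejunum minus ileum difference was -0.12 to 0.5 for Anpep, -0.35 to 0.41 for Enpep, -0.3 to 0.55 for Mep1b and 0.02 to 1 for Dpp4. Dpp4 had 11.4, 11.4 and 11.12 in WT jejunum, against 11, 10.49 and 10.9 in WT ileum, a difference of 0.51 ± 0.229 (adjusted p = 0.137). Over the alternatives its adjusted p ranged from 0.029 to 0.395. It passed with only these 6 arrays in the model (0.0418) and with array weights (0.029), and it did not with the replicate block (0.0736) or without WT ileum replicate 2 (0.395). With a covariate for the mean of 20 villus genes, described further on, the difference was -0.26 for Dpp4, of opposite sign (adjusted p = 0.269). That mean was at 10.67 to 11.02 in WT jejunum and at 9.64 to 10.4 in WT ileum, without overlap, so this difference is an extrapolation.

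In the jejunum labelled cKO, the same 4 genes were called against WT jejunum: Naaladl1, Mep1a and Xpnpep2 were higher and Ace was lower. There was no control jejunum from the cKO line, so genotype and mouse line cannot be told apart in this comparison. Between control ileum and WT ileum, groups of different mice, 27.9% of all genes tested were called. Naaladl1 averaged 11.89 ± 0.22 in the arrays labelled cKO and 9.4 ± 0.3 in WT jejunum, a difference of 2.48 ± 0.208 or 5.59-fold (adjusted p = 2.37e-06). Mep1a averaged 10.96 ± 0.37 in the arrays labelled cKO and 8.74 ± 0.32 in WT jejunum, a difference of 2.23 ± 0.245 or 4.68-fold (adjusted p = 2.75e-05). Xpnpep2 averaged 10.46 ± 0.46 in the arrays labelled cKO and 9.13 ± 0.28 in WT jejunum, a difference of 1.33 ± 0.268 or 2.51-fold (adjusted p = 0.00388). Ace averaged 9.13 ± 0.78 in the arrays labelled cKO and 11.83 ± 0.11 in WT jejunum, a difference of -2.7 ± 0.397 or 6.48-fold (adjusted p = 0.000357). In each of the 4 genes all 3 cKO arrays lay on the same side of all 3 WT arrays. So they did in Anpep, which was not called (adjusted p = 0.572 by limma). The share of all genes with this separation is not given here. The counts were 3 of 8 higher and 1 of 8 lower, where 5.17% of all genes tested were called higher and 7.65% lower, 12.8% in all. The member median was -0.11 and that of all genes -0.03. This comparison and the regional one share the WT jejunum arrays, so their opposite signs are not independent of each other. Over all genes 40.3% of calls were higher, and 51.2% after quantile normalization. The 4 calls held under each of the 17 alternatives, with the Ace difference between -3.02 and -2.26, and so also without any single cKO array. Goblet cell markers moved with this comparison, 3 of 4 being higher. Their array means were 11.05 to 11.23 in the arrays labelled cKO jejunum and 10.58 to 10.75 in WT jejunum. Also called higher were 3 of 10 epithelial, 1 of 6 B and plasma cell, 1 of 6 myeloid and 1 of 10 stromal and smooth muscle markers. Called lower was 1 of 5 Paneth markers. The part of these lists in the members' values was not tested.

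Anpep, Enpep, Dpp4 and Mep1b did not pass in this comparison. Their differences were -0.15 ± 0.145, -0.1 ± 0.178, -0.12 ± 0.229 and -0.13 ± 0.199, with adjusted p-values of 0.572, 0.78, 0.801 and 0.737. The lowest bound of the 4 confidence intervals was -0.61, for Dpp4, and the highest was 0.37, also for Dpp4.

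The values of the arrays labelled cKO jejunum were then set against WT ileum, a comparison that shares the cKO arrays with the one above. Region, genotype and mouse line differ together in it and cannot be told apart. None of the 8 members was called by limma, where 5.1% of all genes tested were (3.26% higher and 1.84% lower). An unadjusted p under 0.05 was found for 1 member and for 2322 of the 11784 genes tested. Naaladl1 differed by 0.13 (interval -0.32 to 0.57), Mep1a by 0.11 (-0.41 to 0.63) and Xpnpep2 by 0.51 (-0.06 to 1.09). Ace differed by 0.88 ± 0.397 (interval 0.03 to 1.73, unadjusted p = 0.0433, adjusted p = 0.237). An interval that holds 0 does not show equal levels.

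**Figure D2:**
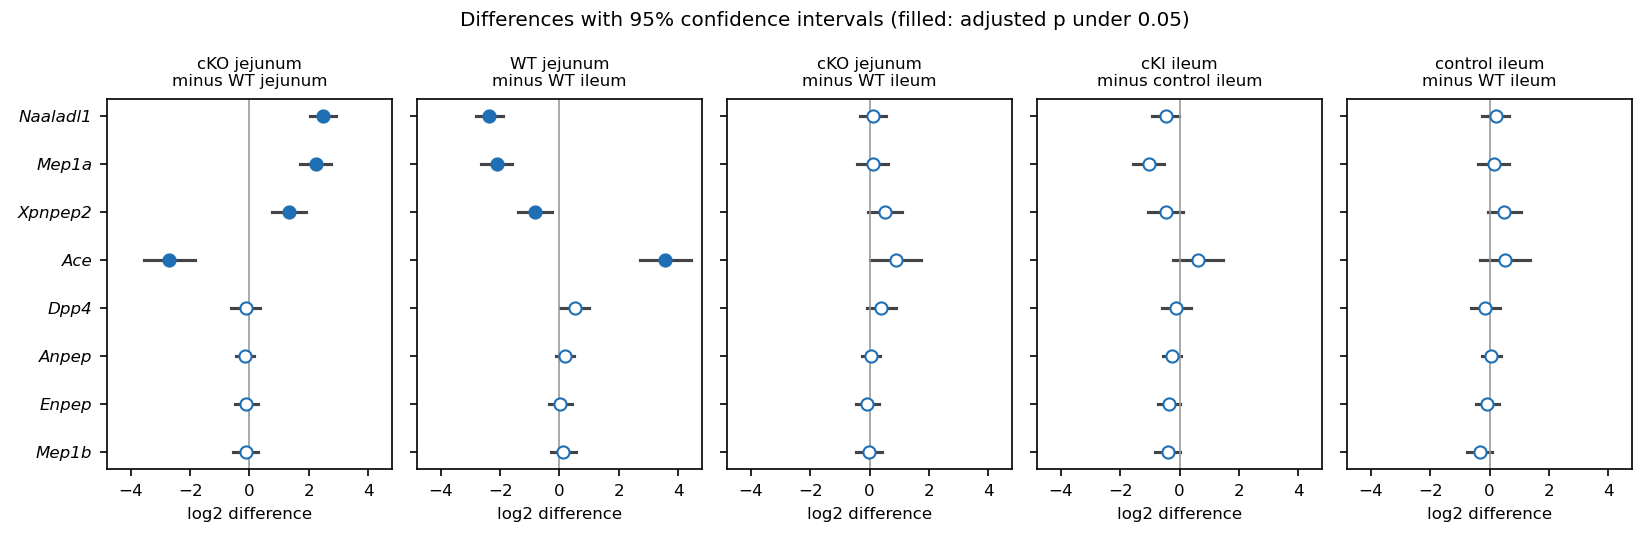
Log2 differences of the 8 peptidases in 5 comparisons, with 95% confidence intervals from limma; filled points have an adjusted p under 0.05. The 4 filled points of the cKO minus WT jejunum panel stand opposite in sign to those of the WT jejunum minus WT ileum panel, and the cKI minus control panel holds no filled point.

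Mep1a was higher in the arrays labelled cKO jejunum than in WT jejunum and held GATA words. Ace had the largest regional difference and no such word, and Dpp4 held a word and was not called in the cKO comparison. Promoter sequences of these members are shown. They are the 250 bases before the start site from RefSeq (GRCm38.p6), 5′ to 3′,, and 6 members were searched (Anpep, Dpp4, Enpep, Mep1a, Ace and Xpnpep2). The words searched were AGATAA or AGATAG, and also TGATAA or TGATAG, on both strands, which are forms of the GATA factor consensus, and capitals mark them (TTATCA is TGATAA on the other strand). At least 1 such word occurred in 26.5% of the 32851 promoter windows of the same length.
Mep1a, chr17:43502774-43503023, minus strand: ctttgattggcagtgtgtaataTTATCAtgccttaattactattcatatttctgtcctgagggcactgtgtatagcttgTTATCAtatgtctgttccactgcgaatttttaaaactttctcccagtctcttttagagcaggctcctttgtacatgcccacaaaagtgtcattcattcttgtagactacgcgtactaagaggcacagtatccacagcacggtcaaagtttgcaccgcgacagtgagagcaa
Dpp4, chr2:62412232-62412481, minus strand: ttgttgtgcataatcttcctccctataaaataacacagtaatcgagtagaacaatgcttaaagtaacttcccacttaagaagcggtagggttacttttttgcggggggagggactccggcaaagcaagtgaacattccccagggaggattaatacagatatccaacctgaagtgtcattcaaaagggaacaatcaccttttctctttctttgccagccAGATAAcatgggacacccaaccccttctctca
Ace, chr11:105967698-105967947, plus strand: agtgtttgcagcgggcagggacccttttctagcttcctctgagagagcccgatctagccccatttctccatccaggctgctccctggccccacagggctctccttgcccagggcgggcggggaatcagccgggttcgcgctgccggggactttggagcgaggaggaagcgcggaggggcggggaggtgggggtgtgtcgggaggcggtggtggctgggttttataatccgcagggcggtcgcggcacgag
Mep1a held 2 words, starting 228 and 171 bases before the start, and Dpp4 held 1, starting 32 bases before it. None was found in the windows of Anpep, Enpep and Xpnpep2 or in either of the 2 windows of Ace, a gene with a somatic start and an internal start used in testis. A match is a description of letters and not evidence of binding.

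In the cKI ileum no member was called against the control ileum by limma, where 0.764% of all genes tested were called (0.339% higher and 0.424% lower). An unadjusted p under 0.05 was found for 2 of 8 members and for 1804 of the 11784 genes tested. Mep1a averaged 9.97 ± 0.39 in cKI ileum and 11 ± 0.33 in control ileum, a difference of -1.04 ± 0.245 or 2.05-fold (interval -1.56 to -0.51, adjusted p = 0.0698), and all 3 cKI arrays lay below the 3 control arrays. Equal replicate numbers paired the arrays of these groups by the limit used here, and with the replicate number as a block within sets of mice the Mep1a adjusted p was 0.0048, or 0.0407 with a block over all arrays. It was 0.0412 without cKI ileum replicate 2 and 0.0177 with array weights. In all, Mep1a passed under 5 of 17 alternatives, counting a villus covariate described further on, and did not pass under 12. Among those 12, its adjusted p was 0.138 with only these groups in the model. It was 0.252 when cKI array 1 was left out, 0.227 when cKI array 3 was and 0.226 when control array 2 was. Naaladl1 averaged 11.49 ± 0.28 in cKI ileum and 11.96 ± 0.19 in control ileum, a difference of -0.47 ± 0.208 (unadjusted p = 0.0387, adjusted p = 0.308). Ace averaged 9.39 ± 0.94 in cKI ileum and 8.77 ± 0.19 in control ileum, a difference of 0.62 ± 0.397 (adjusted p = 0.479). Its cKI replicates 1 and 2 lay above all control arrays and replicate 3 below them; without replicate 3 the difference was 1.13, and without replicate 2 it was 0.21.

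The remaining members had negative differences that did not pass. Xpnpep2 differed by -0.47 (interval -1.05 to 0.1), Mep1b by -0.39 (-0.82 to 0.03), Enpep by -0.36 (-0.74 to 0.02), Anpep by -0.26 (-0.57 to 0.05) and Dpp4 by -0.11 (-0.6 to 0.38). In all, 7 of 8 differences were negative, with a member median of -0.38 against 0.03 over all genes. The members share the same 6 arrays, and the 20 genes of brush border structure and villus enterocytes had array means of 9.16 to 10.17 in cKI ileum and of 9.82 to 9.97 in control ileum, with none called and 3 at an unadjusted p under 0.05. Dpp4 is also carried by T cells, whose 10 markers had array means of 4.65 to 5.77 in cKI ileum and of 5.84 to 6.58 in control ileum, with 3 of the 10 below the level filter in both groups. None of the 7 T cell markers tested was called by limma. All 7 had an unadjusted p under 0.05, where 1804 of the 11784 genes tested did, and their part in the Dpp4 value was not tested. Of 7 endothelial markers, a cell type that carries Ace in most organs, 5 or more had group means below the level filter in every group. Other lists moved in the same comparison: 2 of 10 stromal and smooth muscle markers were called lower in cKI ileum (7 of 10 at an unadjusted p under 0.05, median -0.81), as were 1 of 6 B and plasma cell markers (median -0.88) and 1 of 4 goblet markers (median -0.4). Their part in the members' values was not tested. In bulk RNA, fewer cells of a type and less RNA per cell cannot be told apart.

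Against WT jejunum, the cKI ileum differed in all 8 members, where 41.8% of all genes tested were called (25.5% higher and 16.3% lower). Higher were Naaladl1 by 2.08 ± 0.208 (adjusted p = 3.98e-06), Mep1a by 1.23 ± 0.245 (0.0011) and Xpnpep2 by 0.84 ± 0.268 (0.0206). Lower were Ace by -2.44 ± 0.397 (0.000236), Mep1b by -0.85 ± 0.199 (0.00336), Dpp4 by -0.76 ± 0.229 (0.0156), Enpep by -0.47 ± 0.178 (0.0445) and Anpep by -0.4 ± 0.145 (0.0388). The list of brush border structure and villus enterocyte genes moved the same way, with 18 of 20 called lower in cKI ileum and array means of 9.16 to 10.17 there against 10.67 to 11.02 in WT jejunum. With the mean of that list as a covariate, 3 of the 8 members were called, all higher in cKI ileum: Naaladl1, Mep1a and Xpnpep2. Under it the differences were 0.23 for Anpep, 0.36 for Dpp4 and 0.38 for Enpep, of opposite sign and not called, and Ace differed by -0.52 (adjusted p = 0.354). The list means did not overlap between these groups, so the differences under the covariate are extrapolations. The covariate cannot separate villus content from region or mouse line here. Without cKI ileum replicate 3, 5 of 8 were called, and Anpep, Dpp4 and Enpep were not (adjusted p = 0.204, 0.0897 and 0.225). The count was also 5 without any single WT jejunum array, and Anpep and Enpep were among those lost each time. The groups come from different mouse lines as well as regions, which cannot be told apart here.

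Between control ileum and WT ileum, groups of different mice and the same region, 27.9% of all genes tested were called, 19.3% higher and 8.61% lower in control ileum. No member was called between them by limma, and none had an unadjusted p under 0.05, where 4691 of the 11784 genes tested did. The largest difference was 0.52 ± 0.397 for Ace (adjusted p = 0.358), followed by 0.5 ± 0.268 for Xpnpep2 (0.182) and -0.34 ± 0.199 for Mep1b (0.228). Over all genes 69.1% of these calls were higher in the control ileum as deposited, 58.6% after median centring and 47.9% after quantile normalization.

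The 2 Gata4 contrasts use no array in common, so their difference was tested directly, as cKI minus control in ileum against WT minus cKO in jejunum. Naaladl1 was called: its difference was -0.47 in the ileum and -2.48 in the jejunum, unequal by 2.01 ± 0.294 (interval 1.38 to 2.64, adjusted p = 0.00199), where 2.94% of all genes tested were called (1.2% higher and 1.74% lower). The Naaladl1 call held under all 23 alternatives, with values of 1.84 to 2.33. For Mep1a the differences were -1.04 and -2.23, unequal by 1.19 ± 0.346 (adjusted p = 0.0865). For Ace they were 0.62 and 2.7, unequal by -2.08 ± 0.562 (adjusted p = 0.0634, but 0.0217 without cKI ileum replicate 2 and 0.0285 without cKO jejunum replicate 1). For Xpnpep2 they were -0.47 and -1.33, unequal by 0.85 ± 0.379 (adjusted p = 0.271). Equal replicate numbers paired the arrays in the ileal contrast and not in the jejunal one. With a replicate block inside each set of mice, Mep1a (adjusted p = 0.00419), Ace (0.0172) and Xpnpep2 (0.0285) were called as well, and with a block over all arrays Mep1a was (0.0459). Both blocks join cKO jejunum with the WT groups by replicate number. These added calls therefore rest on a pairing that was not seen between cKO and WT jejunum. In these 4 genes the ileal and the jejunal difference had the same sign, and the jejunal one was the larger in size. The contrasts also differ in mouse line and in Gata4 signal, and these cannot be told apart from region. The other 4 members were unequal by -0.23 to -0.53 and were not called.

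**Figure D3:**
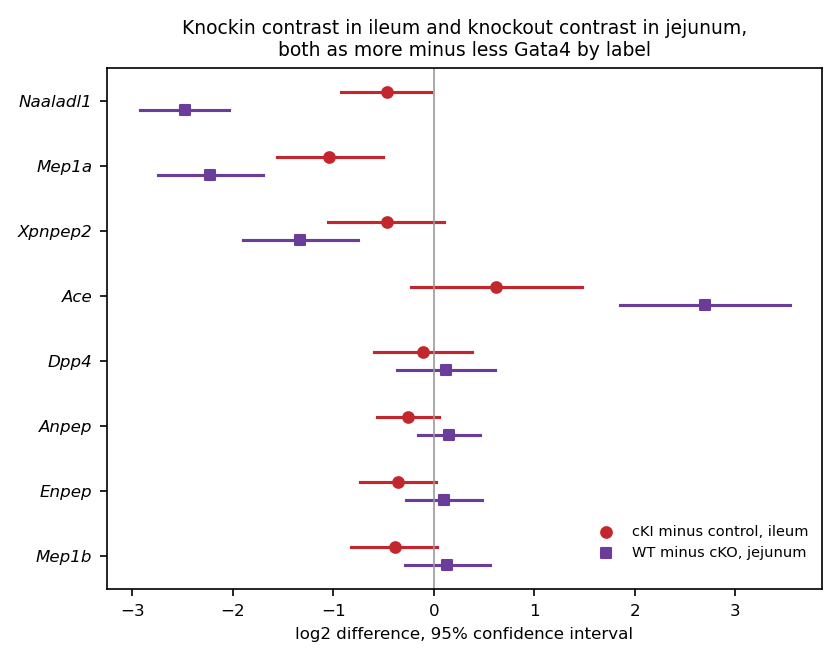
Log2 differences of the 8 peptidases with 95% confidence intervals, for cKI minus control ileum (circles) and for WT minus cKO jejunum (squares), both directed as more minus less Gata4 by label. For Naaladl1 (-0.47 against -2.48), Mep1a and Ace the intervals do not overlap, and for Xpnpep2, Dpp4, Anpep, Enpep and Mep1b they do. The intervals are not adjusted for the number of genes. By the direct test in limma only Naaladl1 was called (adjusted p = 0.00199), and Mep1a (0.0865) and Ace (0.0634) were not.

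Within groups, the 8 peptidases mostly varied together from array to array, though less so in WT jejunum. After removal of group means, the 28 pairs of members had Pearson correlations from 0.41 (Mep1a with Mep1b) to 0.96 (Anpep with Enpep) over the 15 arrays, with a median of 0.8, where the median over all pairs of tested genes was 0.03. These points share arrays and their normalization, and the values are a description. All 8 members lay above their group mean in WT ileum replicate 1, control ileum replicate 1, cKI ileum replicate 2 and cKO jejunum replicate 1. All 8 lay below it in WT ileum replicate 2, control ileum replicate 3, cKI ileum replicate 3 and cKO jejunum replicate 2. In WT jejunum the members above and below were 7 and 1 in replicate 1, 4 and 4 in replicate 2 and 2 and 6 in replicate 3. The mean of the members deviated by 0.43 in cKI replicate 2 and by -0.44 in cKI replicate 3, and the villus list of 20 genes deviated by 0.5 in cKI replicate 2 and by -0.5 in cKI replicate 3. Over all arrays the mean of the members correlated within groups by 0.96 with the villus list and by -0.8 with the list of 7 crypt and proliferation genes (Lgr5 and Mki67 among them). It was also 0.95 with peptide and amino acid transporters, 0.87 with other surface and luminal peptidases and 0.8 with cytosolic peptidases. With marker lists it was 0.75 (T and NK), 0.74 (jejunal), 0.7 (ileal), 0.66 (goblet) and 0.63 (epithelial). It was 0.2 (stromal), 0.14 (endothelial), 0.07 (Paneth), -0.13 (myeloid) and -0.16 (B and plasma) with the rest. With the villus list as a covariate, chosen after this was seen, the cKO minus WT jejunum differences were 2.65 for Naaladl1, 2.43 for Mep1a, 1.61 for Xpnpep2 and -2.29 for Ace, all 4 still called. In the same model Mep1a (-0.86, adjusted p = 0.035) and Ace (0.96, adjusted p = 0.0363) passed between cKI and control ileum.

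**Figure D4:**
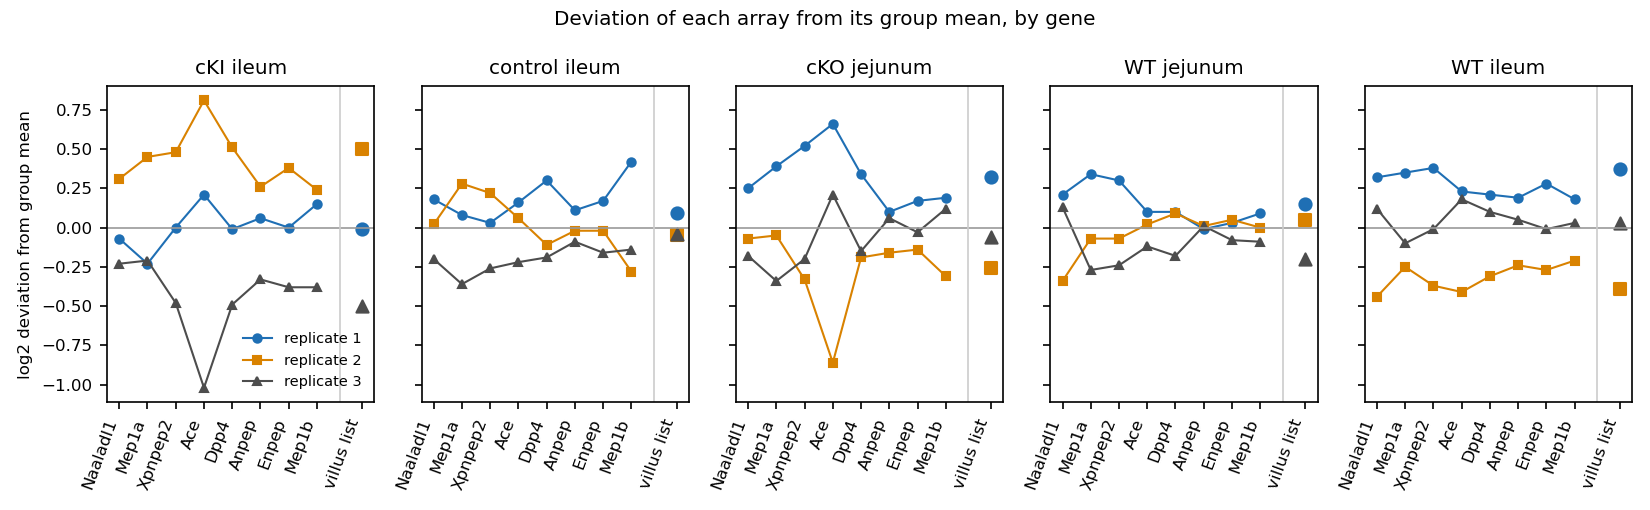
Deviation of each array from its group mean, in log2 units, for the 8 peptidases (joined points, 1 line per replicate) and for the mean of the 20 villus genes (point at the right of each panel). In cKI ileum the line of replicate 2 is above 0 and that of replicate 3 below 0 for all 8 genes, and the villus points of these arrays stand at 0.5 and -0.5.

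Other peptidases, and carriers of peptides and amino acids, were examined as lists. Of 12 tested genes of other surface and luminal peptidases, 3 were higher and 1 lower in WT jejunum against WT ileum, where 13.4% of all genes tested were called higher and 7.91% lower. The 3 with the smallest p were Tmprss2, a transmembrane serine protease (0.88 ± 0.122, adjusted p = 9.06e-05), Tmprss15, the enteropeptidase that activates trypsinogen (adjusted p = 9.38e-05), and Mme, neprilysin (3.59 ± 0.515, adjusted p = 0.000124). Tmprss15 averaged 7.54 ± 0.58 in WT jejunum and 2.77 ± 0.13 in WT ileum, and since the ileal mean is below the level filter no size of difference is given. In the arrays labelled cKO jejunum 2 were higher and 1 lower than in WT jejunum: Cpd, carboxypeptidase D, by 0.82 ± 0.156 (adjusted p = 0.00251), Ggt6 of the gamma-glutamyl transferase family by 0.55 ± 0.132 (0.0121), and Tmprss2 by -0.46 ± 0.122 (0.0213). Over all genes tested 5.17% were called higher and 7.65% lower there. The list median was 0.02 in the regional comparison and 0.08 in the cKO comparison. None of the 12 was called between cKI and control ileum, where 3 had an unadjusted p under 0.05, beside 1804 of the 11784 genes tested.

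Of 20 genes listed as cytosolic peptidases of enterocytes, a list that also holds aminoacylases, 6 were higher and 1 lower in WT jejunum against WT ileum. Over all genes it was 13.4% and 7.91%. Acy1 and Acy3, aminoacylases, were higher by 2.27 ± 0.207 (adjusted p = 1.78e-06) and 2 ± 0.213 (adjusted p = 7.97e-06), and Blmh, bleomycin hydrolase, was lower (-0.77 ± 0.0974, adjusted p = 4.04e-05). In the arrays labelled cKO jejunum 1 was higher and 2 lower than in WT jejunum: Blmh (0.53 ± 0.0974, adjusted p = 0.00217), Acy1 (-1.22 ± 0.207, adjusted p = 0.00109) and Acy3 (-0.94 ± 0.213, adjusted p = 0.0082). This count is near that over all genes, of which 12.8% were called. None of the 20 was called between cKI and control ileum, where 2 had an unadjusted p under 0.05, beside 1804 of the 11784 genes tested. The median of the 20 was 0.11, -0.14 and 0.06 in these comparisons.

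Of 18 tested carriers of peptides and amino acids, 8 were higher and 6 lower in WT jejunum against WT ileum, with a median of 0.5, where 13.4% of all genes were called higher and 7.91% lower. Slc36a1, a proton-coupled amino acid carrier, differed by 3.1 ± 0.259 (adjusted p = 7.74e-07), Slc1a1, a glutamate carrier, by -1.32 ± 0.115 (1.12e-06), and Slc16a10, an aromatic amino acid carrier, by 2.27 ± 0.215 (2.46e-06). In the arrays labelled cKO jejunum 4 were higher and 4 lower than in WT jejunum, with a median of -0.14, beside 5.17% and 7.65% of all genes. Slc7a8, a basolateral neutral amino acid exchanger, differed by -2.72 ± 0.253 (adjusted p = 6.2e-06), Slc1a1 by 1.2 ± 0.115 (8.37e-06) and Slc36a1 by -2.67 ± 0.259 (9.16e-06). Slc15a1, which encodes PepT1 and is named here after its values were seen, was higher in WT jejunum than in WT ileum by 1.36 ± 0.433 (adjusted p = 0.0357). In the arrays labelled cKO jejunum it averaged 10.48 ± 0.66, against 11.07 ± 0.15 in WT jejunum (adjusted p = 0.435). None of the 18 was called between cKI and control ileum, and their median was -0.08. Of them 7 had an unadjusted p under 0.05, beside 1804 of the 11784 genes tested.

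The genes whose signals were most like those of each member over the 15 arrays are given by Pearson correlation, as a description over arrays that fall into 5 groups. Nearest to Naaladl1 were Arhgef3 (0.977) and Lpcat4, a lysophospholipid acyltransferase (0.968). Nearest to Mep1a were Tmigd1, an immunoglobulin-domain protein of epithelia (0.979), and Neu1, a lysosomal sialidase (0.97). Nearest to Ace were Acsl5, a fatty acyl-CoA synthetase (0.993), and Slc5a12, a lactate carrier (0.99), and nearest to Xpnpep2 were Tle3, a corepressor (0.934), and Garem1, a signalling adaptor (0.925). Anpep and Enpep shared Ccng2, cyclin G2, as their nearest gene (0.929 and 0.936), followed by Cdhr2, a cadherin of microvilli, for Anpep (0.905) and Krt20, a villus keratin, for Enpep (0.919). Nearest to Dpp4 were Apob, the chylomicron apolipoprotein (0.966), and Slc28a2, a nucleoside carrier (0.956). For Mep1b they were Atp6v1b2, a proton pump subunit (0.95), and Heph, the ferroxidase hephaestin (0.938). Among the members themselves, Naaladl1 correlated with Mep1a by 0.94 and with Ace by -0.82 over the 15 arrays.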

How the data were processed

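Per the labels, RNA purified with a Qiagen RNeasy Mini kit was labelled by the Affymetrix whole transcript sense protocol. Per the submitters' processing notes the authors used Partek. Their deposited values were read as log2 from their range and array medians. No source used here gave the Partek version or how background, normalization and summarization were handled. Of 35556 transcript clusters, 21789 had exactly 1 symbol, 1621 had several and 12146 were not in the annotation used here. For 999 symbols with several clusters the brightest was used. Genes whose largest group mean exceeded 4.91 were tested, and 8154 were left out. limma 3.58.1 (lmFit and eBayes, in R 4.3.3) estimated the 5 group means jointly from the 15 arrays, with 10 residual degrees of freedom and two-sided tests, and the code was tested on simulated data.

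Members, lists and tests were chosen with earlier results of these data known. Named are all members, Gata4, up to 3 called genes of each list by smallest p, and the 2 genes most correlated with each member. Alternatives varied normalization, filter, cluster choice, arrays fitted, variance model, array weights, replicate blocks, a villus covariate and each replicate.

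Pairing was read from replicate numbers: after removal of group means, equal numbers correlated across genes by 0.334, 0.216 and 0.161 (WT jejunum with WT ileum) and by 0.128, 0.177 and 0.258 (cKI with control), all above the limit of 0.1. The values were 0.185, -0.0247 and -0.0732 for cKO with WT jejunum and -0.103, -0.265 and -0.00722 for control with WT ileum, which were not paired.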

Additional observations from a re-analysis of the deposited data

Results flagged for a closer look

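The Naaladl1 response differed between the 2 Gata4 contrasts by a direct test: cKI minus control in ileum and WT minus cKO in jejunum were unequal by 2.01 on the log2 scale (adjusted p = 0.00199 by limma). The Gata4 signal was not lower in the arrays labelled cKO jejunum, and mouse line and region cannot be told apart here.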

How the results depend on the processing

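Of 1000 recomputed member differences, 943 stayed on their side of the threshold, 28 lost a call, 25 gained one and 4 changed sign with a call before or after. A further 34 that were not called before or after also changed sign, so 38 did in all: 20 with the villus covariate, 16 with 1 array left out and 2 otherwise. Of 250 counts of calls, 48 moved by more than 1.5 times. The 4 members called between cKO and WT jejunum were called under every alternative. The cause was not tested for the changes that follow. With the villus covariate, chosen after seeing the data, Enpep was -0.56 between WT jejunum and WT ileum (adjusted p = 0.00815 by limma), and between cKI ileum and WT jejunum Anpep was 0.23, Dpp4 0.36 and Enpep 0.38. In both comparisons the covariate did not overlap between the groups, so these values are extrapolations. Under that covariate the members called were 2 for cKI against control, 2 for control against WT ileum, 3 (of 8) for cKI ileum against WT jejunum, 1 for cKO jejunum against WT ileum and 4 for the difference of the Gata4 contrasts, and genes called were 143, 1597 and 357 for cKI against control, cKI ileum against WT jejunum and cKO jejunum against WT ileum (90, 4924 and 601 without it). With array weights, genes called were 3967 for WT jejunum against WT ileum (2507 without), 766 for cKI against control and 819 for the difference of the contrasts (346 without), and members called were 1 for cKI against control, 1 for control against WT ileum and 3 for the difference. With only the groups compared, genes called were 19 for cKI against control, 979 for cKO against WT jejunum (1510 with all groups) and 299 for cKO jejunum against WT ileum, and with no level filter 52 for cKI against control. With the replicate block made separately for each set of mice, genes called were 235 for cKI against control and 533 for the difference, and members called were 1 for cKI against control, 1 for control against WT ileum, 1 for cKO jejunum against WT ileum and 4 for the difference. With a replicate block over all arrays, members called were 1 for cKI against control and 2 for the difference. The block changed no other member count by over 1.5 times.

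Leaving out 1 array at a time gave 1813 to 2368 genes called for WT jejunum against WT ileum, 20 to 176 for cKI against control, 984 to 1532 for cKO against WT jejunum, 279 to 592 for cKO jejunum against WT ileum and 176 to 575 for the difference of the contrasts. Members called then ranged from 0 to 1 for cKI against control, from 5 to 7 for cKI ileum against WT jejunum and from 1 to 2 for the difference.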
